A study of Mus musculus with 4 samples.

Results

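Interferon-stimulated genes and the receptors, sensors and transcription factors around them were followed in whole retina of adult mice after loss of Nrl, the transcription factor that keeps rod photoreceptors in their fate. The list held 37 genes, chosen by name for their place in the interferon pathway, with earlier results of these data known. Of these, 32 were measured by a probe set with a single gene symbol, among 19421 genes on the array. The other 5, Ifnar1, Isg15, Ifi44, Gbp2 and Igtp, were not analysed here, and for Isg15 the probe set carries another symbol as well. No filter on low signal was applied, so no measured member was lost to one.

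There were 2 groups of 2 arrays. The knockout arrays held RNA of Nrl(f/f);Cag-CreERT(+) mice, with floxed Nrl on both chromosomes, and the control arrays RNA of Nrl(+/f);Cag-CreERT(+) mice, with 1 intact allele. Both groups therefore carried at least 1 floxed allele and the CAG-driven CreERTM recombinase, and both were given 4-hydroxytamoxifen on postnatal days 42 to 44, with retinas taken on day 63. CAG is a broadly active promoter, so recombination was not limited to rods by design. Each array was a pool of 4 retinas from 2 animals, and the strain and sex are not stated. Values are log2 probe set levels, differences are knockout minus control, and levels of different probe sets are not comparable with each other.

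Type I interferons signal through the Ifnar1 and Ifnar2 chains to factors that include Stat2 and Irf9 and bind interferon-stimulated response elements. Interferon gamma signals through a receptor of its own, made of Ifngr1 and Ifngr2. Cells start the type I response when sensors such as RIG-I and MDA5 find foreign or misplaced nucleic acid and activate Irf3 and Irf7. In the retina, microglia, Müller glia and vascular cells can all express these genes, and many rise with stress or injury.

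Of the 32 measured members, 0 passed the correction over all genes. The smallest adjusted p among members was 0.134, for Oasl2 (limma, Benjamini-Hochberg over all genes), while 0.201% of all genes were called at an adjusted p under 0.05. At an unadjusted p under 0.05, 11 members were higher and 1 was lower in the knockout, against 3.71% of all genes higher and 3.37% lower. The 11 were Ifit3, Oasl2, Ifit1, Ifih1, Gbp3, Ifnar2, Irgm1, Parp14, Xaf1, Ddx58 and Dhx58, and the lower one was Oas2. In 15 members both knockout arrays lay above both control arrays and in 3 both lay below, against 17.0% and 18.4% of all genes. The median log2 difference of the 32 members was 0.14, beside −0.0026 over all genes, and 24 members lay above 0 and 8 below.

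These counts rest on few arrays. Without control replicate 1 or without control replicate 2, 7 members in place of 11 were higher at an unadjusted p under 0.05, and without knockout replicate 1 there were 8. The number lower went from 1 to 3 without control replicate 1 (Oas2, Irf7 and Mx2) and to 0 without control replicate 2. Without control replicate 1, limma called 0 of all genes (1355 at an unadjusted p under 0.05), and without control replicate 2 also 0 (1328). With an intensity trend in the variance model, Oasl2 passed (limma adjusted p = 0.0408), and 128 genes in place of 39 were called over the whole table.

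**Figure D1:**
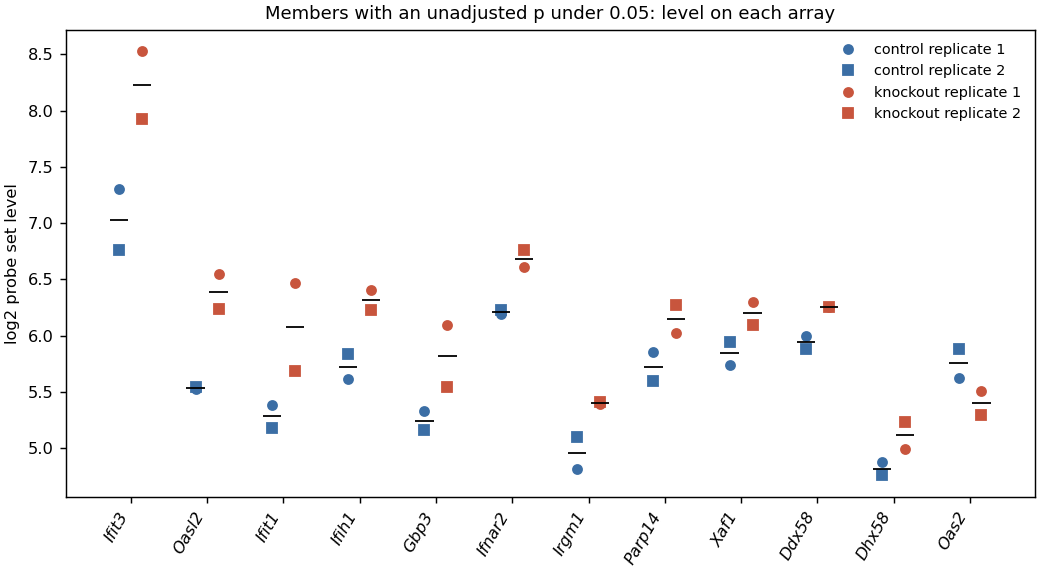
Log2 probe set level (vertical axis) on each of the 4 arrays for the 12 members with an unadjusted p under 0.05, ordered by their difference. Blue points are control, red points knockout, circles replicate 1, squares replicate 2, and black bars group means. All knockout points lie above all control points for every gene shown except Oas2, where they lie below.

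Some facts of the arrays touch every value. Nrl itself read 7.57 and 7.05 in the knockout, against 8.21 and 8.13 in control, a difference of −0.86 (SE 0.18, limma adjusted p = 0.289). Retinal identity was plain from Sag, rod arrestin, at 11.32 and 11.34 in the knockout and 11.66 and 11.63 in control. Xist and 3 Y-linked genes separated the arrays by replicate number and not by genotype. Xist read 4.07 (knockout) and 4.09 (control) in replicate 1, against 10.66 and 10.47 in replicate 2. The same-number differences given for single genes below thus compare pools of like Xist level. Where these Y-linked genes were low they still read 3.04 to 5.02, so a level in that range may be background. In whole retina, more cells of a type and more RNA per cell cannot be told apart.

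Among the receptors, Ifnar2, a chain of the type I interferon receptor, stood apart from the chains of the interferon gamma receptor. Ifnar2 read 6.61 and 6.76 in the knockout, against 6.19 and 6.23 in control. The control pools lay close together and both knockout pools lay above them, with a mean of 6.69 ± 0.11 (SD, n = 2) against 6.21 ± 0.03 (SD, n = 2). The difference was 0.48 (SE 0.11), or 1.39-fold, with a limma adjusted p of 0.325. Ifngr1, the ligand-binding chain, read 7.22 and 7.19 in the knockout and 7.35 and 7.10 in control. Its groups overlapped, and its difference of −0.02 had a 95% interval of −0.31 to 0.27. Ifngr2, the second chain, differed by 0.04, with an interval of −0.21 to 0.30, and its groups overlapped too.

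The 8 STAT and IRF factors had no member at an unadjusted p under 0.05, and 5 of their 8 differences lay below 0. Above 0 lay 3, beside 49.05% of all genes. Irf7, which amplifies the type I response and is itself strongly induced by interferon, read 5.10 and 5.29 in the knockout and 5.40 and 5.58 in control. Both knockout pools lay below both controls, and the difference of −0.29 (SE 0.12) lay at the unadjusted threshold without passing it (limma adjusted p = 0.708). It passed that threshold in 6 of 11 alternative settings, which include quantile normalization and median centring, but in none of the 11 the correction over all genes. The same-number differences were −0.30 and −0.29. Irf5, a factor of myeloid cells downstream of Toll-like receptors, read 5.05 and 4.99 in the knockout and 5.19 and 5.22 in control, again without overlap. Irf9, the DNA-binding partner of Stat2, lay on the other side, at 6.001 and 5.73 against 5.67 and 5.55, a difference of 0.25 (SE 0.13, limma adjusted p = 0.78) that was 0.12 without knockout replicate 1. Stat2 differed by 0.14, also without overlap.

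The remaining factors overlapped between the groups. Irf1, an activator induced by interferon gamma, differed by −0.09, and Irf2, which competes with Irf1 for its sites, by 0.10. Irf3, which is activated after sensing and is not itself much induced, differed by −0.13. Irf8, a factor that microglia need, read 5.64 and 5.69 in the knockout and 5.52 and 5.91 in control, a difference of −0.05 with a 95% interval of −0.41 to 0.30.

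All 3 cytoplasmic RNA sensors were higher in the knockout at an unadjusted p under 0.05, against 3.71% of all genes. None overlapped between groups, and in 17.0% of all genes both knockout arrays lay above both controls. Ifih1, which encodes MDA5, a sensor of long double-stranded RNA, read 6.41 and 6.22 in the knockout and 5.61 and 5.83 in control. Its mean was 6.32 ± 0.13 against 5.72 ± 0.16 (SD, n = 2 each), a difference of 0.59 (SE 0.13, 1.51-fold, limma adjusted p = 0.305). Ddx58, which encodes RIG-I, a sensor of RNA ends, read 6.26 in both knockout pools and 5.99 and 5.88 in control. That is a difference of 0.32 (SE 0.10, limma adjusted p = 0.593). Dhx58, which encodes LGP2, a regulator of both, read 4.99 and 5.24 in the knockout and 4.87 and 4.76 in control. Its difference was 0.30 (SE 0.12, limma adjusted p = 0.705), its same-number differences were 0.12 and 0.48, and without knockout replicate 2 the difference was 0.18. The unadjusted limma p of Dhx58 was 0.0494, just under the threshold. It was over the threshold with median centring (0.0525) and an intensity trend (0.0748), and under it with quantile normalization (0.0471).

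**Figure D2:**
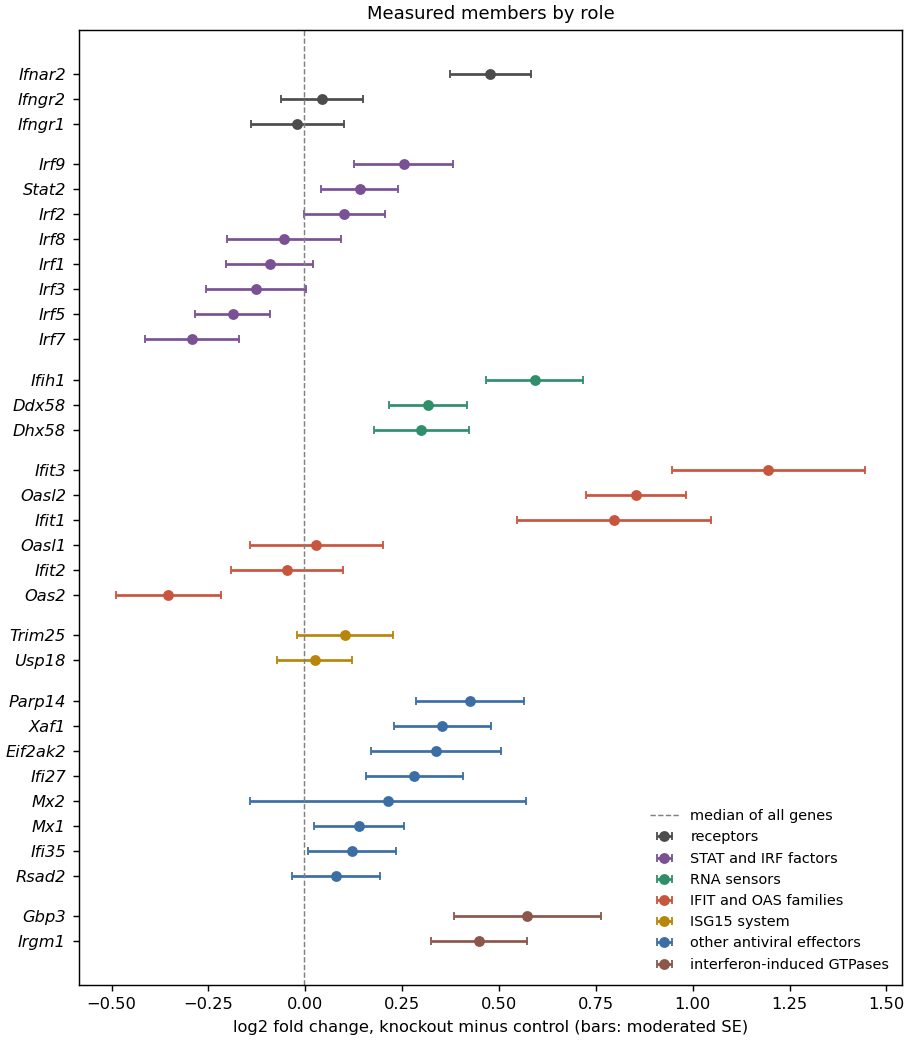
Log2 fold change, knockout minus control (horizontal axis), of the 32 measured members by role, with points for the estimate and bars for its moderated SE (n = 2 arrays per group). The dashed line is the median of all genes, −0.0026. The sensors and GTPases lie to the right of the line, the STAT and IRF factors lie on both sides of it, and the IFIT and OAS families spread most widely, from −0.35 for Oas2 to 1.20 for Ifit3.

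Among the IFIT proteins, Ifit1 binds viral RNA that lacks a host-like cap. Ifit3 had the largest difference of all members. It read 8.53 and 7.93 in the knockout and 7.30 and 6.76 in control. In both groups replicate 1 was the higher array, and both knockout arrays lay above both controls. The means were 8.23 ± 0.42 and 7.03 ± 0.39 (SD, n = 2 each), a difference of 1.20 (SE 0.25, 2.29-fold, limma adjusted p = 0.295), and the same-number differences were 1.22 and 1.17. Ifit3b, a near copy of Ifit3 chosen after its values were seen, had 0.83 (SE 0.43, limma adjusted p = 0.783). Hybridisation shared between the copies was not tested, so the separate size of the Ifit3 difference is uncertain.

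Ifit1 read 6.47 and 5.69 in the knockout and 5.39 and 5.18 in control. The groups did not overlap, but knockout replicate 1 stood well above knockout replicate 2. The difference was 0.80 (SE 0.25, 1.74-fold, limma adjusted p = 0.593). It was 0.41 without knockout replicate 1 and 1.19 without knockout replicate 2. Ifit2 gave no such separation, with 6.10 and 6.04 in the knockout between control values of 6.31 and 5.93, and a 95% interval of −0.40 to 0.30 for its difference of −0.05.

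The difference between family members can be read on each array. Ifit3 minus Ifit2 was 2.42 and 1.89 in the knockout against 0.998 and 0.83 in control, a gap of 1.24 between the group means. Ifit1 minus Ifit2 was 0.37 and −0.35 against −0.92 and −0.75, a gap of 0.84. Each pair of groups is separate, and a two-sided exact permutation test gave p = 0.333 for both, the smallest that 2 arrays against 2 allow. These comparisons were chosen after the values were seen.

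The OAS family makes or evolved from enzymes that make oligoadenylates, the activators of RNase L. Oasl2 read 6.54 and 6.23 in the knockout and 5.53 and 5.55 in control. The control arrays differed little and both knockout arrays lay above them. The difference was 0.85 (SE 0.13, 1.81-fold, 95% interval 0.54 to 1.17, limma adjusted p = 0.134), with the smallest p of any member. Oasl1, a relative known to restrain Irf7 translation, read 5.96 and 6.27 in the knockout and 5.89 and 6.29 in control. Its arrays paired by replicate number and not by genotype, and the difference was 0.03 (95% interval −0.39 to 0.45).

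Oas2 went the other way from Oasl2, with 5.51 and 5.29 in the knockout and 5.63 and 5.88 in control. Both knockout arrays lay below both controls, with same-number differences of −0.12 and −0.59. The mean difference was −0.35 (SE 0.14, limma adjusted p = 0.666), and −0.22 without control replicate 2. Oasl2 minus Oas2 was 1.03 and 0.94 in the knockout against −0.10 and −0.34 in control (two-sided exact permutation p = 0.333, the smallest possible). Oasl2 minus Oasl1 was 0.58 and −0.04 against −0.37 and −0.74, with the same p.

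**Figure D3:**
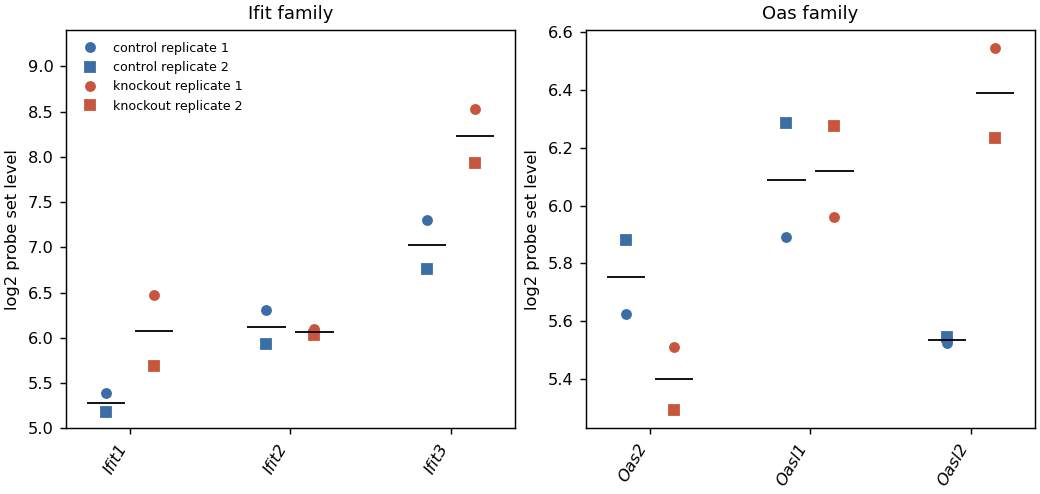
Log2 probe set level (vertical axis, different range in each panel) on each array for members of the Ifit family (left) and the Oas family (right), with circles for replicate 1, squares for replicate 2 and black bars for group means. Ifit1, Ifit3 and Oasl2 show red knockout points above the blue control points, Ifit2 and Oasl1 overlap, and Oas2 lies lower in the knockout.

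In the Isg15 system, which attaches a ubiquitin-like protein to other proteins, both measured genes overlapped between groups. Usp18, which removes that protein and dampens signalling at Ifnar2, read 5.54 and 5.49 in the knockout and 5.47 and 5.50 in control. The arrays spanned a narrow range, and the difference of 0.02 had a 95% interval of −0.21 to 0.26. Trim25, a ubiquitin ligase that acts on RIG-I, differed by 0.10 (95% interval −0.20 to 0.40).

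All 8 measured genes of the other antiviral effectors lay above 0, beside 49.05% of all genes. In 4 of them both knockout arrays lay above both controls, beside 17.0% of all genes. Under the unadjusted threshold of 0.05 lay 2, beside 3.71% of all genes higher. Parp14, an ADP-ribosyltransferase, read 6.03 and 6.28 in the knockout and 5.85 and 5.60 in control, a difference of 0.43 (SE 0.14, limma adjusted p = 0.603). Its same-number differences were uneven, 0.17 in replicate 1 and 0.68 in replicate 2. Xaf1, an interferon-induced gene linked to cell death, read 6.30 and 6.10 against 5.74 and 5.95, a difference of 0.35 (SE 0.13, limma adjusted p = 0.642). Here replicate 1 had the larger same-number difference, 0.56 against 0.15. Ifi27, which encodes a small membrane protein, differed by 0.28 and did not overlap (limma adjusted p = 0.739), and its difference was 0.16 without knockout replicate 1.

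Eif2ak2, which encodes PKR, a kinase that halts translation on double-stranded RNA, read 5.69 and 5.28 in the knockout and 5.02 and 5.27 in control. Its groups were separate only narrowly, and its difference was 0.34 over all arrays but 0.13 without knockout replicate 1. The dynamin-like GTPase Mx1 differed by 0.14 and Ifi35 by 0.12, both with overlap. Mx2 read 4.03 and 4.21 against 3.31 and 4.50, and its difference of 0.21 became −0.38 without control replicate 1. Rsad2, which encodes viperin, an antiviral enzyme strongly induced by interferon, read 4.54 and 4.69 in the knockout and 4.61 and 4.46 in control. Its 95% interval of −0.20 to 0.36 holds 0, and the levels of Mx1, Mx2 and Rsad2 all lie in the range where background could not be told from signal, as do some of those of Dhx58, Irgm1, Irf1 and Irf5.

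Of the 4 members grouped as interferon-induced GTPases, which act on membranes of vacuoles that hold pathogens, 2 were measured, Irgm1 and Gbp3. Both were higher in the knockout at an unadjusted p under 0.05, against 3.71% of all genes. Mx1, a GTPase as well, was grouped with the other antiviral effectors and did not pass that threshold. Irgm1 read 5.39 and 5.41 in the knockout and 4.82 and 5.10 in control. Its difference was 0.45 (SE 0.12, 1.36-fold, limma adjusted p = 0.504). Gbp3 read 6.09 and 5.54 against 5.33 and 5.16, with no overlap but a wide gap between its knockout pools. Its difference was 0.57 (SE 0.19, limma adjusted p = 0.603), and 0.30 without knockout replicate 1.

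The promoters of the members show what letters the response element takes in these genes. RefSeq windows of 250 bases before to 50 after a gene's start (GRCm38.p6) were found for 30 of the 37 members, 25 of them measured. The core of the interferon-stimulated response element was searched on both strands as the word GAAA, any 2 bases and GAAA again, which on the other strand is TTTC, any 2 bases and TTTC. Overlapping copies were counted. It was present in 13 of the 35 windows of these genes, in 13 of the 30 genes, while 3.44% of all 32851 windows held it. Stretches of 80 bases that end at or before the start are shown for Ifit1, Ifit3, Gbp3 and Irgm1, whose knockout arrays lay above the controls, and for Rsad2, whose arrays overlapped. Capitals mark the motif letters, each stretch reads 5′ to 3′ on the gene's own strand, and the copies in Gbp3 and Irgm1 overlap.
Ifit1: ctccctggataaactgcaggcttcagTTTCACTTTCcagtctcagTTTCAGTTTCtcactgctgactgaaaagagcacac
Ifit3: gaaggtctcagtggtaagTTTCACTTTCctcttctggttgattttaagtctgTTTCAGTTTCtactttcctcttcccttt
Gbp3: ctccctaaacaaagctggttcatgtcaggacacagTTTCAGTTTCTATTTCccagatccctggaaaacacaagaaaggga
Irgm1: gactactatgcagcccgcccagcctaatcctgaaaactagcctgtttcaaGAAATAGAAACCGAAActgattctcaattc
Rsad2: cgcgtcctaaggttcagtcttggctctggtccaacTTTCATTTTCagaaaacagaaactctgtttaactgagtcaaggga
The Ifit1 stretch is chr19:34640759-34640838 and the Ifit3 stretch chr19:34583355-34583434, both on the plus strand, and their copies share the forms TTTCACTTTC and TTTCAGTTTC. The Gbp3 stretch is chr3:142559964-142560043 on the plus strand, the Irgm1 stretch chr11:48871421-48871500 on the minus strand, and the Rsad2 stretch chr12:26456528-26456607 on the minus strand.

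Of the 25 measured members with a window, 10 held these letters, with a median difference of 0.39 and a range of 0.08 to 1.20. The 15 without them had a median of 0.03 and a range of −0.29 to 0.85. These 15 included the receptor chains Ifnar2, Ifngr1 and Ifngr2 and the factors Irf1, Irf3, Irf5, Irf7, Irf8 and Irf9. Of those roles the 10 included only Irf2 and Stat2, and the part of role in the gap was not tested. Parp14, Dhx58, Oas2, Mx1, Mx2, Ifi27 and Usp18 had no window and are in neither group. At an unadjusted p under 0.05, 6 of the 10 and 3 of the 15 were higher in the knockout. The 3 were Oasl2, Xaf1 and Ifnar2, so a higher level was not limited to genes with the letters, and Rsad2, Irf2 and Stat2 held the letters with differences of 0.08, 0.10 and 0.14. The gamma-activated site was searched as TTC, any 3 bases and GAA, which reads the same on both strands. It was present in 9 of the 35 windows of the members, in 9 of the 30 genes, and in 8.30% of all windows. Matches are descriptions of letters in these windows and no evidence of binding.

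Other genes of the pathway were read from lists of 88 genes, of which 72 were measured. Of the ligands, 0 of 9 measured were called by limma. Ifnb1, the type I interferon made first on sensing, read 3.54 and 3.99 in the knockout and 3.70 and 4.06 in control. Ifng, the gamma interferon, read 5.42 and 5.60 against 5.40 and 5.56. Both overlapped between the groups, with differences of −0.12 and 0.03. At an unadjusted p under 0.05, Ifna4 had −0.41 and Ifnl2 0.32 (limma adjusted p = 0.526 and 0.603). All levels of Ifnb1 and Ifna4 lay in the range of 3.04 to 5.02 that may be background.

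Among 11 measured genes of the JAK-STAT core and its feedback, 0 were called by limma. Higher at an unadjusted p under 0.05 were 2, against 3.71% of all genes. The 2 were feedback inhibitors. Socs3, which several cytokines induce, read 6.29 and 6.30 in the knockout and 5.92 and 5.79 in control, a difference of 0.44 (SE 0.10, limma adjusted p = 0.358), or 0.26 as the mean of its probe sets. Socs1 had 0.24 (SE 0.10, limma adjusted p = 0.7). The kinases Jak1, Jak2 and Tyk2 had −0.16, −0.04 and −0.03, with all levels of Tyk2 in the range that may be background. Of 12 measured genes for nucleic acid sensing upstream of interferon, none was called by limma or had an unadjusted p under 0.05, and their differences ran from −0.23 to 0.21.

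Of 40 further interferon-stimulated genes measured, Ifitm3, a membrane protein that blocks viral entry, rose and was the only one called, beside 0.201% of all genes. It read 9.90 and 9.52 in the knockout and 8.03 and 7.59 in control, a difference of 1.90 (SE 0.19, limma adjusted p = 0.0366). The call was lost when any of the 4 arrays was left out. Such fits leave 1 array in a group, so the lost call is no measure of stability. At an unadjusted p under 0.05, 7 of the 40 were higher and 1 lower, against 3.71% and 3.37% of all genes. Above 0 lay 35 of the 40, beside 49.05% of all genes. Rtp4, a chaperone of cell surface receptors, read 6.16 and 5.83 against 5.06 and 4.96, a difference of 0.99 (SE 0.14, limma adjusted p = 0.105). Trim30a, of the tripartite motif family, had 0.65 (SE 0.12, limma adjusted p = 0.24), and Lgals3bp, a secreted glycoprotein, had 0.52 (SE 0.14, limma adjusted p = 0.479). The median of the 40 was 0.14, as for the 32 members.

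**Figure D4:**
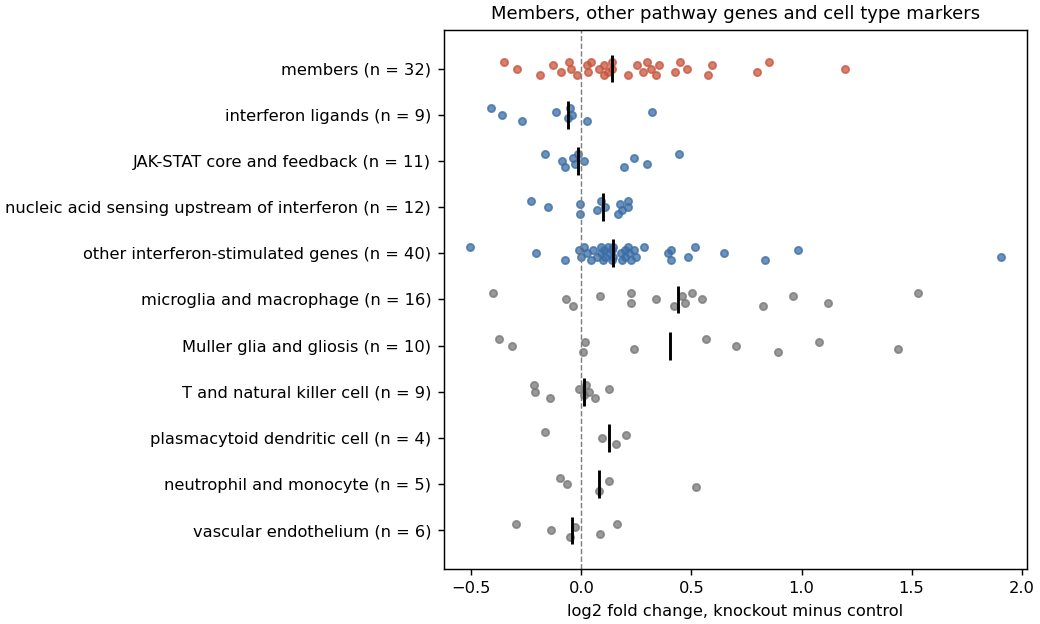
Log2 fold change, knockout minus control (horizontal axis), for the 32 members (red), 4 lists of other pathway genes (blue) and 6 lists of cell type markers (grey), each point a gene and each black bar a list median. The dashed line is the median of all genes. The medians of the members and of the other interferon-stimulated genes, 0.14 each, lie right of it, those of the ligands and JAK-STAT genes lie left of it, and the microglial median, 0.44, lies farthest right.

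Markers of cells that can express these genes differed in part with genotype. Of 16 measured microglia and macrophage markers, 2 were called higher, beside 0.201% of all genes called in either direction. Ctss, a lysosomal protease, had a difference of 1.53 (SE 0.15, limma adjusted p = 0.0327). Tyrobp, a signalling adaptor of myeloid receptors, had 1.12 (SE 0.11, limma adjusted p = 0.0347). At an unadjusted p under 0.05, 10 of the 16 were higher and 1 lower, against 3.71% and 3.37% of all genes. The lower one was Tmem119, a marker of resident microglia, with a difference of −0.40 (limma adjusted p = 0.403). P2ry12, also of resident microglia, had 0.23, Ptprc 0.08, Itgam −0.04 and Trem2 −0.07, none of them under the unadjusted threshold. All levels of Itgam lay in the range that may be background. The summed signal of the 16 on the linear scale, in which bright probe sets weigh most, was 1599 and 1538 in the knockout and 930.2 and 957.1 in control, a ratio of 1.66. Without Ctss and Tyrobp the ratio was 1.27.

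Of 10 Müller glia and gliosis markers, 2 were called higher, beside 0.201% of all genes called in either direction. A2m, a protease inhibitor, had a difference of 1.44 (SE 0.10, limma adjusted p = 0.0176). Stat3, a factor activated in gliosis, had 1.08 (SE 0.10, limma adjusted p = 0.0271). At an unadjusted p under 0.05, 5 of the 10 were higher and 1 lower, against 3.71% and 3.37% of all genes. The lower one was Glul, the glutamine synthetase of Müller cells, with −0.37 (limma adjusted p = 0.518). Rlbp1, which binds retinoids in Müller cells, had −0.32, Slc1a3 0.02 and Aqp4 0.01, with none under the unadjusted threshold. The 10 summed to 3164 and 3172 against 2418 and 2324, a ratio of 1.34, and the ratio was 1.25 without A2m and Stat3.

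Markers of T and natural killer cells, of plasmacytoid dendritic cells and of vascular endothelium had ratios of 0.994, 1.05 and 1.01. None of their 9, 4 and 6 measured genes was called by limma or had an unadjusted p under 0.05. Among the T and natural killer cell markers, all levels of Cd3d, Cd3g, Cd4, Ncr1 and Gzmb lay in the range that may be background. Tcf4, at 8.19 to 8.34, was the brightest of the plasmacytoid dendritic cell markers and weighed most in their sum. The 5 measured neutrophil and monocyte markers had a ratio of 1.06, and 0 were called by limma. At an unadjusted p under 0.05, 1 of the 5 was higher, S100a8, against 3.71% of all genes. Its difference was 0.52 (SE 0.19, limma adjusted p = 0.655). All levels of S100a8, Ccr2 and Ly6g lay in the range that may be background. The 7 measured rod markers, Nrl itself among them, had a ratio of 0.573. Called lower was 1 of 7, beside 0.201% of all genes called in either direction. It was Gnat1, rod transducin, with a difference of −3.01 (SE 0.13, limma adjusted p = 0.00586). At an unadjusted p under 0.05, 5 of the 7 were lower, against 3.37% of all genes. In 6 of the 7 both knockout arrays lay below both controls, against 18.4% of all genes. Without Gnat1 the other 6 had a ratio of 0.809. The calls of Ctss, Tyrobp, A2m and Stat3 were lost when any of the 4 arrays was left out. The call of Gnat1 was lost without control replicate 1 or 2 and held without knockout replicate 1 or 2. Such fits leave 1 array in a group, so a lost call there is no measure of a gene's stability. The part of these cell types in the members' differences was not tested.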

How the data were processed

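Whole retina RNA was measured on 4 arrays, 2 knockout and 2 control. The authors' deposited table gives a log2 value for each of 21897 probe sets. The log2 scale was inferred from the range of the values. How the arrays were background corrected and normalized was not given in the sources used here. Per the submitters' processing notes, affy and limma were among the tools, with no version named. Precision is limited by the number of arrays.

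The platform annotation gave 20877 probe sets 1 symbol, 175 several and 845 none, and 36 gene IDs had no RefSeq match (GRCm38.p6). The probe set with the highest mean stood for a gene, and no measured member had more than 1. Knockout was set against control in limma 3.58.1 under R 4.3.3 (lmFit and eBayes, genotype as sole term, two-sided, Benjamini-Hochberg over 19421 genes), with calls made at an adjusted p under 0.05. SE is moderated and intervals are 95%. Motif letters were textbook forms and not read from a deposited or reference file. The limma steps returned the mean of known changes on data simulated with independent arrays. That check set no requirement on the share of true changes called and held no differences tied to the replicate number. The members and lists were chosen with earlier results of these data known. Array values are given for members with an unadjusted p under 0.05 and for the largest change in each role group, with others added after their values were seen. Pathway genes were named where called or among the 4 smallest unadjusted p under 0.05 of a list, besides Ifnb1, Ifng and the JAK-STAT core. Pools held different animals, so p-values rest on the spread between pools, which eBayes draws toward the spread of all genes. Within each group that spread also holds the difference in Xist and Y-linked level between the replicate numbers, for which the main fit has no term. Alternatives were quantile normalization, median centring, probe set means, filters on dim genes, trend and robust eBayes, a replicate block and leaving out each array.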

Additional observations from a re-analysis of the deposited data

How the results depend on the processing

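Limma called 0 members under every alternative except the intensity trend, which called 1, Oasl2 (adjusted p = 0.0408), and Rtp4 outside the members (adjusted p = 0.0334). The number of members higher at an unadjusted p under 0.05 was 11 on all arrays, 10 or 11 under quantile normalization, median centring, probe set means, the 25th percentile filter, trend and robust eBayes, 6 of 14 tested with a filter at the 50th percentile of mean signal, and 7 to 11 when an array was left out. The number lower was 1 on all arrays, 2 (Oas2 and Irf7) under quantile normalization, median centring and the 25th percentile filter, 0 with the 50th, and 0 to 3 when an array was left out. Over all genes, limma called 7 without knockout replicate 1, 11 without knockout replicate 2 and 0 without control replicate 1 or 2, so the 0 members called in those last fits say nothing about stability. The median of the members was 0.14, with quantile normalization 0.136, with median centring 0.127, with the 25th percentile filter 0.197 and with the 50th 0.121, and 0.127 to 0.202 when an array was left out. No scaling moved the median of all genes by over 0.1.

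Replicate numbers share no stated litter or day, and with 2 pairs they are not taken as a pairing. Deviations of same-number arrays correlated at 0.239 across genes, and at 0.142 without sex-linked genes. With the replicate block, 0 members were called, 11 were higher and 1 lower at an unadjusted p under 0.05, 10 of these 12 genes were shared with the fit without it (Oas2 and Dhx58 left, Irf7 and Ifi27 entered, Irf7 as the lower one), the smallest member adjusted p was 0.0642 (Ifit3), and 8 genes were called in all, among them Ifitm3 and Gnat1 but not Ctss, Tyrobp, A2m or Stat3 (adjusted p 0.0539 to 0.07295).

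Leaving out 1 array at a time turned the sign of small differences, and the cause was not tested. Among the members, values so obtained ran for Usp18 from −0.00024 to 0.048, Oasl1 from −0.17 to 0.23, Ifngr1 from −0.15 to 0.10, Ifit2 from −0.24 to 0.14, Mx2 from −0.38 to 0.81, Ifngr2 from −0.034 to 0.12, Irf3 from −0.27 to 0.020, Irf8 from −0.25 to 0.14 and Trim25 from −0.027 to 0.23. Among other pathway genes they ran for Ifnb1 from −0.34 to 0.11, Tyk2 from −0.11 to 0.053, Ifng from −0.066 to 0.12 and Jak2 from −0.14 to 0.059. No other alternative turned the sign of a named gene. Ifitm3 lost its call without each array in turn, with differences of 1.69 to 2.12. Ctss, Tyrobp, A2m and Stat3 also lost theirs without each array, and Gnat1 lost its call without control replicate 1 or 2. These fits leave 1 array in a group, so such losses are no measure of stability. Marker sums without the called markers were added after seeing the data.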
